A study of Drosophila melanogaster with 4 samples.

Results

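The hemocyte genes described here are 8 genes of Drosophila melanogaster blood cells, taken by name from a table of 16727 genes: srp and lz, which set blood cell fate, Hml of the blood clot, the phagocytosis receptor genes NimC1, crq and drpr, and the prophenoloxidase genes PPO1 and PPO2. Their RNA was counted in 4 libraries of whole embryos 16 to 18 h old. In 2 libraries, group H3.2-K4R, the genotype was deltaHisC; 12xH3.2-K4R, and in the other 2, group H3.2-WT, it was deltaHisC; 12xH3.2-WT. All embryos thus lacked the endogenous histone gene complex, for which GFP was the marker of selection, and depended on 12 transgenic copies of the histone genes. The H3.2-K4R transgene encodes arginine at position 4 of histone H3.2, where H3.2-WT has lysine. The replacement histone H3.3 comes from other genes, which the named genotypes do not touch, so lysine 4 is not removed from every H3 of the embryo. The title of the series names the question, the part that this lysine plays against Polycomb repression and in target gene expression.

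Blood cells of the Drosophila embryo form in the head mesoderm under the GATA factor Serpent. Most become plasmatocytes, macrophages that spread through the embryo, eat dying cells and lay down basement membrane. A small group near the foregut takes the RUNX factor Lozenge and becomes crystal cells, which store prophenoloxidases, the enzymes that start melanin formation at wounds. Methylation of lysine 4 of histone H3 marks the promoters and enhancers of active genes.

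The libraries held 42661669 and 37055590 counted read pairs in H3.2-K4R and 33882742 and 45509930 in H3.2-WT. The 8 genes took 0.0477% and 0.0506% of them in H3.2-K4R and 0.0399% and 0.0475% in H3.2-WT. The pair of H3.2-K4R libraries had a correlation of 0.952 across genes and the H3.2-WT pair one of 0.967 (log2 CPM, read pairs relative to the scaled library size), while pairs from different groups ran from 0.931 to 0.958. H3.2-K4R replicate 2 stood apart on the first principal component, at 75.8 against 0.691 for H3.2-K4R replicate 1, -45.5 for H3.2-WT replicate 1 and -31.0 for H3.2-WT replicate 2. Fold changes also moved with exon length, with a median of -0.13 on the log2 scale where exons came to 1000 bases or less and of 0.25 where they came to more than 10000 bases. Gene counts do not show the codon for lysine 4, so the genotype of each library was taken from its label. The p-values weigh the difference between the groups against the spread between the libraries of a group. The labels do not say that replicates came from separate collections, so that spread may be technical.

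All 8 genes were detected in every library, and their order by level was the same in all 4. Levels per length are in RPKM, which is CPM divided by the exon length in kilobases. PPO2 was the most abundant, with a mean of 48.0 RPKM over the 4 libraries, followed by srp at 29.0, PPO1 at 20.5, drpr at 14.8, crq at 8.81, Hml at 3.52, NimC1 at 1.45 and lz at 0.361 RPKM. No 2 neighbours in this order overlapped in their ranges over the 4 libraries. The RPKM of srp may be too low, since read pairs from part of its exons were not counted. The gap between the ranges of srp and PPO2 is thus not certain. PPO2 ranked 1278 of 16727 genes by mean RPKM and lz ranked 11120. The 2 prophenoloxidase genes together made up 53.3% and 54.4% of the summed RPKM of the 8 genes in H3.2-K4R and 52.6% and 56.0% in H3.2-WT.

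**Figure D1:**
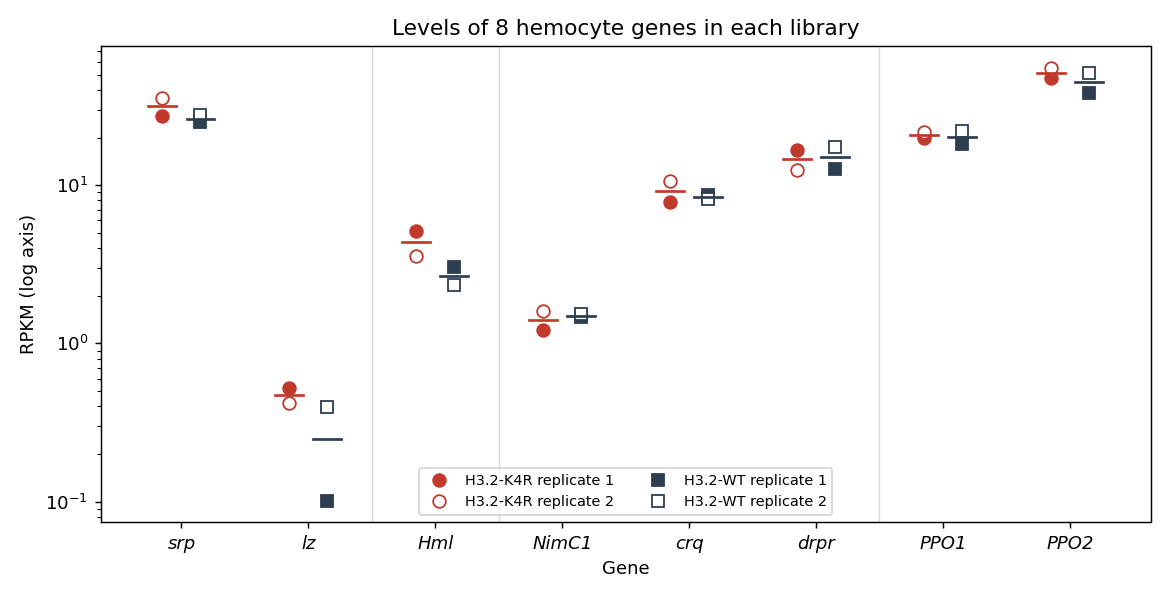
Level of each gene in RPKM (log axis) in the 2 H3.2-K4R libraries (red circles) and the 2 H3.2-WT libraries (dark squares), with filled marks for replicate 1, open marks for replicate 2 and a line at each group mean. Levels run from 0.361 RPKM for lz to 48.0 RPKM for PPO2 in the mean of 4 libraries, and both H3.2-K4R libraries lie above both H3.2-WT libraries only for Hml and lz.

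None of the 8 genes passed the test between the groups in either direction (edgeR quasi-likelihood test over 11562 genes, Benjamini-Hochberg adjusted p under 0.05). Of all genes tested 0.588% were called, 0.415% higher and 0.173% lower. DESeq2 and limma-voom also called 0 of the 8, and at an unadjusted p under 0.05 edgeR had Hml higher and no member lower, where 7.68% and 9.2% of all genes lay. Of the 8 fold changes 6 were positive, with a median of 0.16 on the log2 scale, against 48.1% positive and a median of -0.02 over all genes tested. Both H3.2-K4R libraries lay above both H3.2-WT libraries in 2 of the 8 genes, Hml and lz, against 23.6% of all genes. None lay below both, against 27.5%. The difference between the groups was larger than both differences between replicates in 1 of the 8 genes, Hml, against 34.7% of all genes. These are totals over whole embryos, in which fewer cells of a type and less RNA per cell cannot be told apart.

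**Figure D2:**
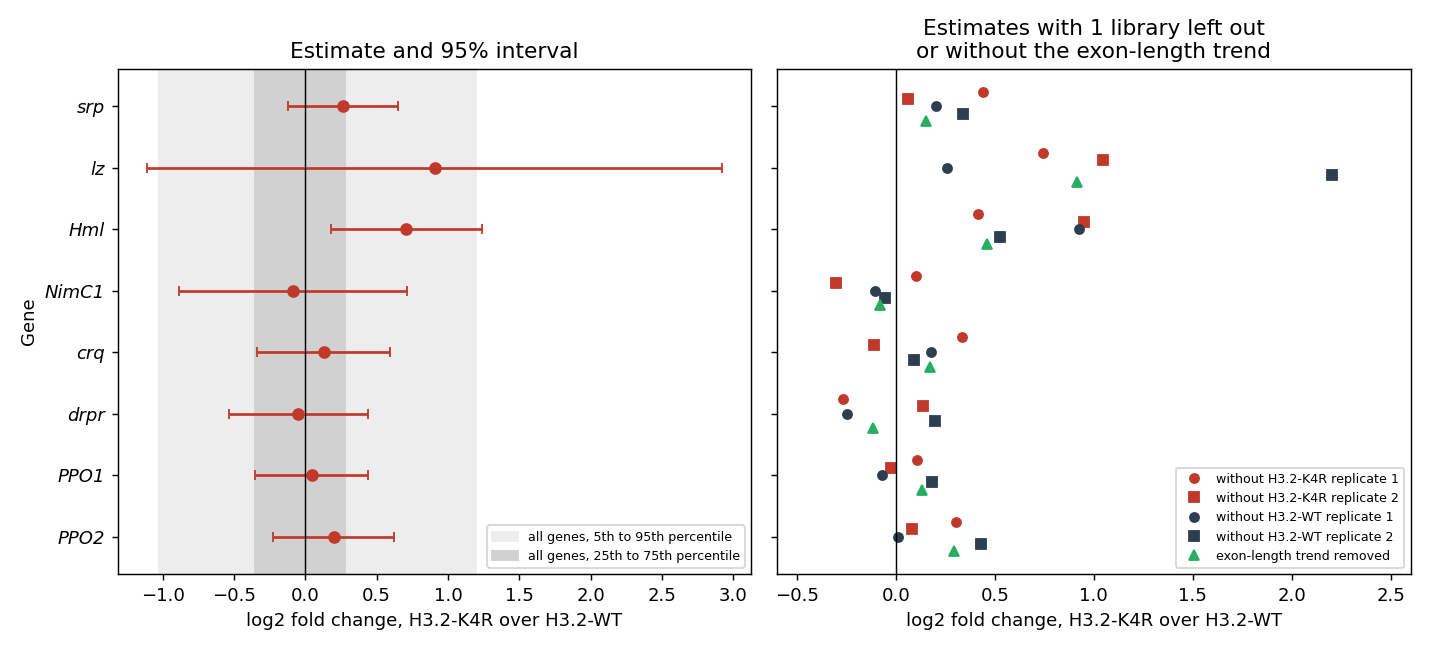
Left, log2 fold change (H3.2-K4R over H3.2-WT) and 95% interval of each gene, over bands that hold the middle 50% and 90% of all genes tested. Right, the same estimate with 1 library left out or with the exon-length trend removed. Hml, at 0.71, has an interval above 0 (0.18 to 1.24), lz has the widest interval (-1.11 to 2.92), and the estimates of NimC1, crq, drpr and PPO1 fall on both sides of 0 when a library is left out.

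Among the fate genes, srp (chromosome 3R, 15986152 to 16004081, build dm6) encodes the GATA factor Serpent, which blood cells need and which the fat body also makes. It had 6625 and 7335 counts in H3.2-K4R and 4820 and 7288 in H3.2-WT, or 155 and 203 CPM against 141 and 157 CPM. The groups overlapped narrowly, with H3.2-K4R replicate 2 above the other 3 libraries. The log2 fold change was 0.26 ± 0.17 (SE, n = 2 per group), with a 95% interval of -0.12 to 0.65 and an edgeR adjusted p of 0.476. Dropping H3.2-K4R replicate 2 gave 0.06, whereas dropping H3.2-K4R replicate 1 gave 0.44 (adjusted p = 0.115). A noncoding gene on the same strand, CR44133, shares 938 exon bases with srp. Pairs over both genes were not counted, so the counts of srp leave out read pairs from that stretch. Its RPKM still divides by all 5668 exon bases, and neither that level nor the ratio of Hml to srp was corrected for this.

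Fat body markers, given here because that tissue also makes Serpent, had a positive median. Of 9 such genes 6 were tested, 1 rose and 0 fell. There were 4 positive and 2 negative log2 fold changes, where 48.1% of all genes tested were positive, with a median of 0.41. That median came to 0.17 with the exon-length trend removed. With no filter it was 0.90 and by DESeq2 0.95, but those fits also held Adh and Lsp1beta, which have few counts. The summed level of the list was 376 and 470.2 RPKM in H3.2-K4R against 291 and 338 RPKM in H3.2-WT. Most of that sum was apolpp alone, at 348 and 441 RPKM in H3.2-K4R and 272 and 316 RPKM in H3.2-WT. Lsp1gamma, a larval storage protein gene, was the one that rose, at 8.46 ± 0.506 CPM in H3.2-K4R and 1.44 ± 0.128 CPM in H3.2-WT (SD, n = 2 each, log2 fold change 2.55 ± 0.35, edgeR adjusted p = 0.03). It lost the call when either H3.2-WT library was left out. Apoltp and apolpp, listed as Rfabg, which encode lipid carriers of the blood, had 0.40 ± 0.14 (adjusted p = 0.233) and 0.42 ± 0.18 (0.288), and both were called with the replicate block. The other positive one, Fbp1, had 11 counts in each H3.2-K4R library and 0 and 3 in H3.2-WT (adjusted p = 0.507). Fbp1 passed the filter only through the H3.2-K4R libraries, so its sign carries no weight. The negative values were those of Fbp2, with 3 and 13 counts in H3.2-K4R and 25 and 24 in H3.2-WT (-1.54 ± 1.40, adjusted p = 0.635), and of Lsp2, with 46 and 0 counts in H3.2-K4R and 34 and 45 in H3.2-WT (-0.85 ± 1.60, 0.844). Lsp1alpha was at 0 in every library, and Adh and Lsp1beta had 14 or fewer counts in each. The part of fat body RNA in the level of srp was not tested.

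Lozenge, the RUNX factor of crystal cells, had few counts. The gene lz (X, 9284649 to 9303636) had 77 and 53 counts in H3.2-K4R and 12 and 64 in H3.2-WT. H3.2-WT replicate 1 was low, at 0.352 CPM with an exact 95% Poisson interval of 0.182 to 0.615 CPM. The other H3.2-WT library, at 1.38 CPM (1.06 to 1.76), lay just under the H3.2-K4R libraries, at 1.81 CPM (1.43 to 2.26) and 1.47 CPM (1.10 to 1.92). These intervals cover counting error only. The log2 fold change was 0.91 ± 0.87 (SE, n = 2 per group; adjusted p = 0.657), with an interval that runs from 0.463-fold to 7.59-fold. The intervals of the 2 H3.2-WT libraries did not overlap, and neither did those of Hml, srp, drpr, PPO1 and PPO2. Leaving out H3.2-WT replicate 1 gave 0.26 and leaving out H3.2-WT replicate 2 gave 2.21.

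Of the other genes of blood cell fate and migration 0 passed. The list has 11 genes, all tested. Of these 9 had positive fold changes, where 48.1% of all genes tested were positive, and the median was 0.22. In 5 of the 11 both H3.2-K4R libraries lay above both H3.2-WT libraries, against 23.6% of all genes. Both counts include Bro, with 26 counts in each H3.2-K4R library and 0 and 12 in H3.2-WT (2.29 ± 1.69). With so few counts its sign carries little weight. The median came to 0.14 when H3.2-K4R replicate 2 was dropped, to 0.12 for H3.2-WT replicate 1 and to 0.33 for H3.2-WT replicate 2. The lowest p was that of Pvf3, a ligand of the receptor that guides and sustains embryonic hemocytes, with 174 and 199 CPM in H3.2-K4R and 123 and 148 CPM in H3.2-WT (log2 fold change 0.46 ± 0.16, edgeR adjusted p = 0.213, or 0.0209 with the replicate block). Pvr, the receptor gene, had 0.22 ± 0.15 (adjusted p = 0.506). The glial and blood fate factor gene gcm2 had 48 and 86 counts in H3.2-K4R and 32 and 29 in H3.2-WT (1.16 ± 0.80, adjusted p = 0.514).

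Hml encodes Hemolectin, a large secreted protein of the clot that is widely used as a plasmatocyte marker. The gene (3L, 13846054 to 13860001) has 11756 exon bases, the most of the 8. It had 2590 and 1517 counts in H3.2-K4R and 1215 and 1267 in H3.2-WT, or 60.8 and 42.0 CPM against 35.7 and 27.3 CPM. Both H3.2-K4R libraries were the higher ones, and replicate 1 was above replicate 2 in each group. The mean was 51.4 ± 13.3 CPM in H3.2-K4R and 31.5 ± 5.90 CPM in H3.2-WT (SD, n = 2 each), a log2 fold change of 0.71 ± 0.23 (SE) or 1.63-fold, with a 95% interval of 1.13-fold to 2.36-fold. The unadjusted p was 0.0151 and the adjusted p 0.199 (edgeR). Of all genes tested, 19.9% had a larger fold change in size.

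The estimate for Hml depended on the libraries and on exon length. Leaving out H3.2-K4R replicate 1 gave 0.41 and leaving out H3.2-WT replicate 2 gave 0.53, while leaving out H3.2-K4R replicate 2 gave 0.95 and leaving out H3.2-WT replicate 1 gave 0.92. The edgeR adjusted p lay between 0.111 and 0.635 in these 4 fits. With the exon-length trend removed it was 0.46 ± 0.25 (adjusted p = 0.435). Hml was called with no filter on low counts (0.71, adjusted p = 0.00864) and with the replicate number as a block (0.69, adjusted p = 0.00348), and DESeq2 gave 0.73 with an adjusted p of 0.0534. The numbers in the labels are not known to pair the libraries.

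Of 8 other genes, for plasmatocyte markers and secreted matrix, 0 passed the test, and 3 had positive and 5 negative fold changes. Both H3.2-K4R libraries lay below both H3.2-WT libraries in 3 of the 8, against 27.5% of all genes, and above both in 0, against 23.6%. The median fold change was -0.18. It came to -0.54 when H3.2-K4R replicate 1 was dropped, to -0.32 for H3.2-WT replicate 1 and to -0.065 for H3.2-WT replicate 2, and removing the exon-length trend gave -0.28. SPARC, listed as BM-40-SPARC, a matrix protein gene of hemocytes and fat body, had 191 and 126 CPM in H3.2-K4R and 223 and 259.6 CPM in H3.2-WT (-0.61 ± 0.21, edgeR adjusted p = 0.219). SPARC was called lower with no filter, with the replicate block and when H3.2-K4R replicate 1 was dropped, and vkg with the block. The collagen IV gene vkg had 1825 and 1461 CPM in H3.2-K4R and 1986 and 2476 CPM in H3.2-WT (-0.44 ± 0.18, adjusted p = 0.275), and Pxn, the peroxidasin gene, had 95.7 and 68.5 CPM in H3.2-K4R and 92.3 and 129.9 CPM in H3.2-WT (-0.44 ± 0.22, adjusted p = 0.37). The positive values were those of He (0.54 ± 1.15, 13 to 49 counts), Ppn (0.14 ± 0.19) and Tig (0.0027 ± 0.17). Glt had -0.00051 ± 0.15, and Col4a1, listed as Cg25C, had -0.36 ± 0.18. The ratio of Hml to srp per length, which needs no scaling between libraries, was 0.188 and 0.0997 in H3.2-K4R and 0.122 and 0.0838 in H3.2-WT, and the groups overlapped.

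One neighbour of Hml was called. CG8745 (3L, 13860027 to 13866905) lies on the opposite strand. Its near end is 26 bases past the end of Hml, so that the 2 genes are transcribed toward each other. CG8745 fell to 31.4 ± 7.53 CPM in H3.2-K4R, against 123 ± 13.6 CPM in H3.2-WT (SD, n = 2 each), with 1567 and 944 counts against 3849 and 6134. Its log2 fold change was -1.96 ± 0.20 (SE, edgeR adjusted p = 0.014), and it passed in 9 of 10 alternatives, the exception being the fit without H3.2-WT replicate 2 (-1.84, adjusted p = 0.144). CG8745 was chosen after its values were seen. It was 1 of 20 tested genes that lay within 5000 bases of the 8 or overlapped them, of which 0 were called higher and 1 lower, against 0.415% and 0.173% of all genes, and their log2 fold changes ran from -1.96 to 0.91. Strand was used in the counting, which keeps the reads of this pair apart as far as the libraries kept strand, and that was not checked.

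**Figure D3:**
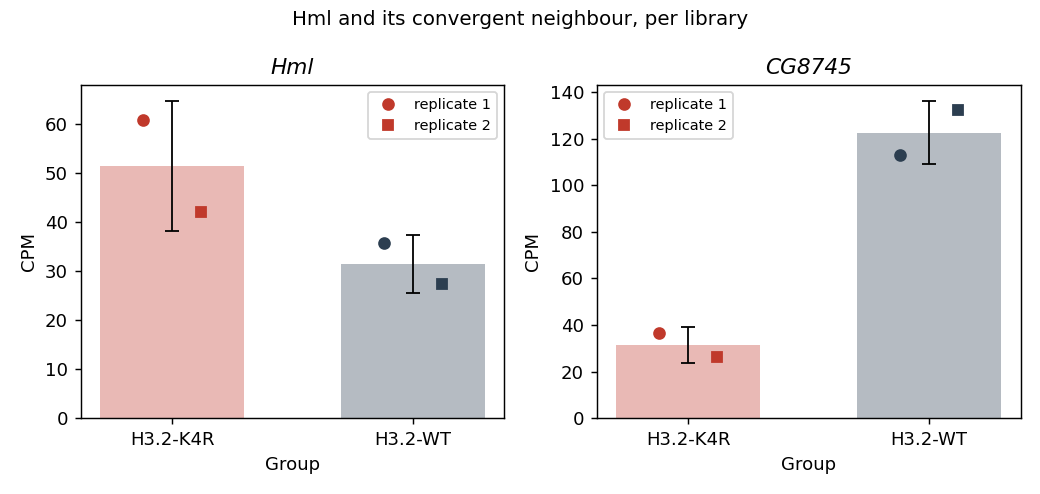
Expression of Hml (left) and of CG8745 (right) in CPM, with H3.2-K4R in red and H3.2-WT in dark blue. Bars are group means from 0, error bars are the SD of 2 libraries, and points are the libraries. Hml averages 51.4 CPM in H3.2-K4R and 31.5 CPM in H3.2-WT, while CG8745 averages 31.4 CPM in H3.2-K4R and 123 CPM in H3.2-WT.

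The phagocytosis receptor genes had fold changes near 0, with intervals that included 0 for all 3. NimC1 (2L, 13973158 to 13976769), a Nimrod receptor that binds bacteria on larval plasmatocytes, was the lowest of the 3. It had 170 and 191 counts in H3.2-K4R and 164 and 233 in H3.2-WT, or 3.99 and 5.28 CPM against 4.81 and 5.02 CPM. The H3.2-WT values lay between the H3.2-K4R values, and the log2 fold change was -0.09 ± 0.34 (SE, edgeR adjusted p = 0.934), with an interval of 0.542-fold to 1.64-fold.

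The scavenger receptor gene crq (2L, 448254 to 453024) encodes Croquemort, a CD36 family protein through which embryonic macrophages take up dying cells. It had 945 and 1093 counts in H3.2-K4R and 836 and 1084 in H3.2-WT, or 22.2 and 30.2 CPM against 24.5 and 23.4 CPM. As for NimC1, the H3.2-WT libraries lay between the H3.2-K4R libraries. The log2 fold change was 0.13 ± 0.20 (SE, edgeR adjusted p = 0.802), with an interval of 0.793-fold to 1.51-fold. The exons of crq share 448 bases with those of ex, which lies on the other strand and is counted apart.

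The third receptor gene, drpr (3L, 1715595 to 1731107), encodes Draper, which recognises dying cells and neuronal debris on hemocytes, glia and epidermis. It had 3359 and 2155 counts in H3.2-K4R and 2056 and 3840 in H3.2-WT, or 78.8 and 59.6 CPM against 60.3 and 82.8 CPM. In each group 1 library was high and 1 low, so that the replicates differed by 0.40 log2 units in H3.2-K4R and by -0.46 in H3.2-WT (replicate 1 over 2). The log2 fold change between groups was -0.05 ± 0.21 (SE, edgeR adjusted p = 0.94), with an interval of 0.689-fold to 1.36-fold.

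Since glia also make Draper, glial markers were set beside it. Of 8 glial genes, all tested, 0 passed, 2 had positive and 6 negative fold changes, and the median was -0.32. Both H3.2-K4R libraries lay below both H3.2-WT libraries in 5 of them, against 27.5% of all genes, and above both in 2, Eaat2 and loco, against 23.6%. Their summed level was 159.8 and 154 RPKM in H3.2-K4R against 175 and 193 RPKM in H3.2-WT. The lowest p belonged to moody, a receptor gene of the blood-brain barrier (-0.43 ± 0.17, edgeR adjusted p = 0.247), the glutamate transporter gene Eaat1 (-0.38 ± 0.15, 0.27) and wrapper of midline glia (-0.75 ± 0.33, 0.302). The part of glial RNA in the level of drpr was not tested.

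Other receptors and engulfment genes gave 0 calls, with exceptions in other fits: NimA was called higher with no filter and with the replicate block, and prtp, which encodes a ligand of Draper, when H3.2-K4R replicate 1 was dropped (0.59, adjusted p = 0.0459). Of 10 further Nimrod family genes 8 were tested, with 3 positive and 5 negative fold changes and a median of -0.14. That median came to -0.069 when H3.2-K4R replicate 1 was dropped and to -0.024 for replicate 2 of that group, and turned to 0.05 once the exon-length trend was removed. NimA, which like Draper belongs to the Nimrod superfamily, had 10.8 and 10.5 CPM in H3.2-K4R and 3.87 and 5.95 CPM in H3.2-WT (1.11 ± 0.31, edgeR adjusted p = 0.165). The secreted member NimB2 had -0.42 ± 0.15 (0.233), and NimC4, also called simu, a receptor for dying cells in embryonic macrophages and glia, had 2.16 and 1.24 CPM in H3.2-K4R and 3.61 and 3.30 CPM in H3.2-WT (-1.02 ± 0.51, 0.364). Of 17 scavenger receptor and engulfment genes 16 were tested. There were 13 positive and 3 negative fold changes, where 48.1% of all genes tested were positive. Sr-CII and Sr-CIII, positive, and Sr-CIV, negative, had 0 to 67 counts per library, so their signs carry little weight. Both H3.2-K4R libraries lay above both H3.2-WT libraries in 8 of the 16, against 23.6% of all genes, and below both in 2, against 27.5%. The median was 0.26, or 0.12 without H3.2-K4R replicate 2. The Src family kinase gene Src42A, which acts in Draper signalling, had 0.37 ± 0.15 (adjusted p = 0.283), the CD36 family gene pes had 0.33 ± 0.16 (0.356) and the GTPase gene Rac1 had 0.35 ± 0.17 (0.359).

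**Figure D4:**
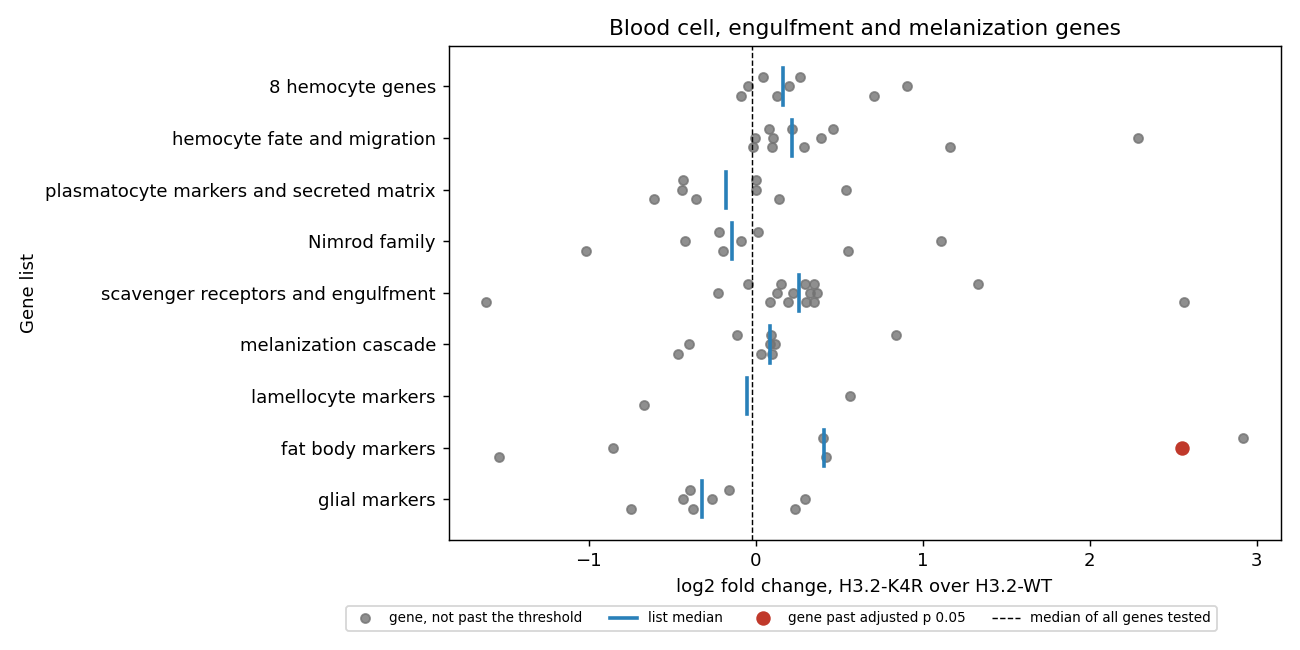
Log2 fold change (H3.2-K4R over H3.2-WT) for each tested gene of the 8 hemocyte genes and of 8 further lists, with the median of each list (blue line) and of all genes tested (dashed line, -0.02). Medians run from -0.32 for glial markers to 0.41 for fat body markers, and 1 gene, Lsp1gamma of the fat body, is past the threshold (red).

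Neither prophenoloxidase gene passed, and the groups overlapped for both. They encode copper enzymes that crystal cells store as inactive precursors. PPO1 (2R, 17887220 to 17889973) had 1975 and 1843 counts in H3.2-K4R and 1458 and 2392 in H3.2-WT, or 46.3 and 51.0 CPM against 42.8 and 51.6 CPM. The H3.2-K4R values lay between the H3.2-WT values. The log2 fold change was 0.04 ± 0.17 (SE, edgeR adjusted p = 0.932), with an interval of 0.784-fold to 1.36-fold.

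PPO2 (2R, 9042261 to 9044709) had 4594 and 4561 counts in H3.2-K4R and 2960 and 5429 in H3.2-WT, or 107.8 and 126 CPM against 86.9 and 117 CPM. The groups overlapped, with H3.2-WT replicate 1 below the other 3 libraries, as it was for PPO1. The log2 fold change was 0.20 ± 0.18 (SE, edgeR adjusted p = 0.642), with an interval of 0.854-fold to 1.54-fold, and it came to 0.01 when H3.2-WT replicate 1 was left out and to 0.43 when H3.2-WT replicate 2 was. PPO2 exceeded PPO1 per length in every library, by 2.39 and 2.54 times in H3.2-K4R and by 2.08 and 2.33 times in H3.2-WT. Both H3.2-K4R ratios were the larger, by less than the difference between the H3.2-WT libraries for the nearest pair. Ratios were formed for other pairs too. That of crq to NimC1 was higher in both H3.2-K4R libraries, and that of PPO1 to lz was lower. The groups overlapped for drpr to crq, Hml to srp and PPO2 to lz. No ratio was tested, and an exact two-sided permutation test of 2 libraries against 2 cannot go below p = 0.333.

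Of 10 genes of the melanization cascade 9 were tested and 0 passed, with 6 positive and 3 negative fold changes and a median of 0.09. That median turned to -0.05 when H3.2-K4R replicate 2 was dropped, came to 0.021 for H3.2-K4R replicate 1 and to 0.018 for H3.2-WT replicate 2, and was 0.18 once the exon-length trend was removed. Sp7, a serine protease gene that acts in prophenoloxidase activation, had 10.1 and 13.7 CPM in H3.2-K4R and 7.10 and 6.16 CPM in H3.2-WT (0.84 ± 0.27, edgeR adjusted p = 0.197, or 0.0382 with the replicate block). Spn27A, a serpin that restrains the cascade, had 91.8 and 70.3 in H3.2-K4R against 106.6 and 106.9 CPM in H3.2-WT (-0.40 ± 0.17, adjusted p = 0.293), and yellow-f2, a gene of a melanin pathway enzyme, had -0.47 ± 0.28 (0.452). PPO3, the prophenoloxidase gene of lamellocytes, had 4 counts in H3.2-K4R replicate 1 and 0 in the other 3 libraries. Lamellocytes are a blood cell type of wasp-infested larvae, and of their markers atilla had 70.5 and 53.7 CPM in H3.2-K4R and 103 and 95.2 CPM in H3.2-WT (-0.67 ± 0.18, adjusted p = 0.152). The call of atilla depended on the fit, with adjusted p of 0.00792 with no filter, 0.0235 by DESeq2, 0.0196 without H3.2-K4R replicate 1 and 0.000931 with the replicate block. ItgaPS4, the other lamellocyte marker tested, had 19 and 58 counts in H3.2-K4R and 37 and 14 in H3.2-WT (0.57 ± 1.14, adjusted p = 0.856). By level, atilla lay at 64.4 to 123 RPKM over the libraries and ItgaPS4 at 0.0898 to 0.477 RPKM. Which cells made the atilla RNA was not tested, so its values are not a measure of lamellocytes.

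The 8 genes did not share one pattern over the libraries. After each was centred on its own mean log2 CPM, the closest pair was PPO1 and PPO2, with a root mean square distance of 0.10 log2 units, then srp and crq at 0.11. The pair farthest apart was lz and NimC1, at 0.92. For Hml, the member with the lowest p, the nearest of 9172 well-counted genes were CG16898 and CG9486 (distances 0.032 and 0.033), and 150 genes lay within 0.2. For PPO2, the most abundant member, the nearest were CG9095 and CG17386 (0.019 and 0.029), and 2364 genes lay within 0.2. With 4 libraries such likeness is common and says nothing of shared function.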

How the data were processed

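The authors deposited a table of raw counts, in read pairs assigned to each gene, made per the file headers with featureCounts (Subread 2.0.6) on 1 strand over exons of a dm6 annotation, with neither multi-mapping reads nor reads over several genes counted. The submitters' processing notes also name STAR 2.7.7a and SAMtools 1.9. The libraries were made from total RNA with a kit that depletes ribosomal RNA, per the labels' protocols. The table names its wild-type columns HWT, which can only be the H3.2-WT samples of this series. All 4 columns were used.

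Genes were filtered with filterByExpr (minimum count 10, minimum total 15), which kept 11562 genes and all 8 members, scaled by TMM and tested with edgeR 4.0.16 in R 4.3.3 (quasi-likelihood test, no block, Benjamini-Hochberg adjustment over all genes tested, threshold 0.05). Fold changes are on the log2 scale, with H3.2-WT as the denominator. CPM and RPKM use TMM library sizes and the exon lengths of the table, which for genes with several isoforms is the union of their exons. Centred log2 CPM values used a prior count of 2. Alternatives were DESeq2 1.42.0 and its size factors, limma-voom (limma 3.58.1), no filter, each library left out, a replicate block, and an offset that removes the loess trend of each library on exon length. The edgeR fit, its versions with the block and with the offset, DESeq2 and limma-voom were also run on simulated counts. The other alternatives were not.

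The members and the 8 comparison lists were chosen with earlier results of these data known. From each list the text names every gene past the threshold and those with the lowest p, up to 3 in all, and nearest patterns were sought among genes whose mean log2 CPM reached 1. Any other gene that is not a member was named after its values were seen. Symbols missing from the table (Col4a1, SPARC, Shark, ItgaPS4 and apolpp) were matched through RefSeq synonyms. Gene spans are those of the table, and 7 of 8 equal those of Ensembl release 115.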

Additional observations from a re-analysis of the deposited data

How the results depend on the processing

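The count of hemocyte genes called lower was 0 in all 10 alternatives, and the count called higher was 0 except with no filter (1) and with the replicate block (1), where Hml passed. The cause was not tested. Of 80 alternative estimates of the 8 fold changes 6 changed sign, all with 1 library left out: the ranges over these 4 fits were -0.30 to 0.10 for NimC1, -0.11 to 0.33 for crq, -0.27 to 0.20 for drpr and -0.071 to 0.18 for PPO1, none past the threshold. For the comparison lists, 145 of 160 alternative counts of calls were equal to the count reported or within 1.5 times of it, and 65 of 80 alternative medians moved by less than the larger of the 2 within-group SDs of that list. Over all genes, 48 were called higher and 20 lower, against 452 and 527 with no filter, 311 and 283 by DESeq2, 101 and 72 by limma-voom, and 75 higher with the exon-length trend removed. Leaving out 1 library gave 1 to 251 higher and 0 to 587 lower. With the replicate block the counts were 608 and 758. The differences between replicates 1 and 2 correlated across genes at 0.106 between the groups, and with 2 pairs and no label that ties the numbers to a shared source, the libraries were not taken as paired. The lowest depth was that of lz, at 12 to 77 counts per library. Its 2 H3.2-WT libraries differed by more than counting error, as they did for Hml, srp, drpr, PPO1 and PPO2.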
